A study of Saccharomyces cerevisiae with 12 samples.

Results

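The transcriptional response of a *sis2*Δ strain to low potassium was examined by comparing 3 RNAseq libraries from cultures in 0.5 mM KCl with 3 from cultures in 7.35 mM KCl, across all genes. These are 6 of the 12 libraries of the series. The other 6 come from WT at the same concentrations and were used to estimate the spread between replicates and to test whether a response differed between strains. Both strains were MATa. The WT strain was CGY41.30, and the mutant strain, CGY41.34, carried sis2d0::kanMX, a deletion of *SIS2* marked with a drug resistance cassette. All cultures were first grown overnight in synthetic complete medium with ammonium as the nitrogen source, glucose, pH 4.5 and 7.35 mM KCl. Each was then kept in exponential growth for 24 h in the medium to be tested, so the compared cultures of the mutant differed in the KCl concentration supplied. The study reports that cultures with ammonium doubled more slowly at lower external potassium. Growth rate can therefore differ between the groups too, and it cannot be told apart from KCl in this design. The mutant is 1 strain, and each group holds 3 biological replicates of it, so the p-values describe the spread between these cultures.

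Sis2p is an inhibitory subunit of the protein phosphatase Ppz1p, and it also takes part in coenzyme A synthesis. Ppz1p restrains potassium uptake through the plasma membrane transporter Trk1p, whereas the kinases Sat4p and Hal5p favor it. Potassium is the main cation of the yeast cytosol, where it balances the charge of phosphate and other anions and supports protein synthesis. Ammonium can enter through the potassium transport system when potassium is scarce.

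The table held 7112 features, of which 6691 had enough counts to be tested and are called genes from here on. The 6 mutant libraries held between 35451323 and 46543107 counts. *SIS2* (YKR072C, chromosome XI) had 54, 70 and 88 counts in 0.5 mM KCl and 60, 40 and 54 in 7.35 mM KCl, against between 3120 and 3808 in the WT libraries. *MFA1* and *STE2*, markers of MATa cells, had between 168 and 489 and between 657 and 738 CPM in the mutant libraries. CPM are counts scaled to a common library size, so a change in total RNA per cell is not seen. *STE3* and *MF(ALPHA)1*, markers of MATalpha cells, lay between 11.1 and 22.1 and between 0.333 and 3.17 CPM. These ranges span both KCl concentrations, and 3 of the markers were higher in 0.5 mM KCl. In fits that left out 1 library, log2 changes ran from 0.825 to 0.913 for *STE3* and from 2.07 to 2.48 for *MF(ALPHA)1*. They ran from 1.165 to 1.308 for *MFA1* and from -0.136 to -0.092 for *STE2*. In a principal component analysis of the 6 libraries, 80.6% of the variance lay on a first axis that separated the KCl concentrations. A further 6.93% lay on the next axis, where replicate 2 in 0.5 mM KCl lay at -8.76, against 1.61 and 6.17 for the other replicates of its group.

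Low potassium changed the expression of 3073 of the 6691 genes in *sis2*Δ at an adjusted p under 0.05, from the quasi-likelihood test of edgeR adjusted by Benjamini-Hochberg. Of these, 1620 were higher in 0.5 mM KCl, or 24.2% of the genes tested, and 1453 were lower, or 21.7%. Both shares serve as the comparison for the counts of the gene lists below. The increases were larger than the decreases. Among the called genes, 216 rose by at least 1 on the log2 scale and 7 were lower by as much, and for a limit of 2 the counts were 37 and 1. The median log2 change was 0.42 among the genes that were higher and -0.26 among those that were lower, and it was 0.0023 over all genes. The 10 largest increases, by a rule that asked for 50 counts on average and no overlap between the groups, were in *PHO5*, *SPL2*, *PHO12*, *PHO84*, *PHO11*, *PHM6*, *PHO89*, *TDH1*, *HXT4* and *VTC3*. The 10 largest decreases were in *CHA1*, *YHR214W*, *YGR035C*, *PDR5*, *YHR214W-A*, *GCV2*, *IMD4*, *YML122C*, *FUR1* and *AQR1*.

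**Figure D1:**
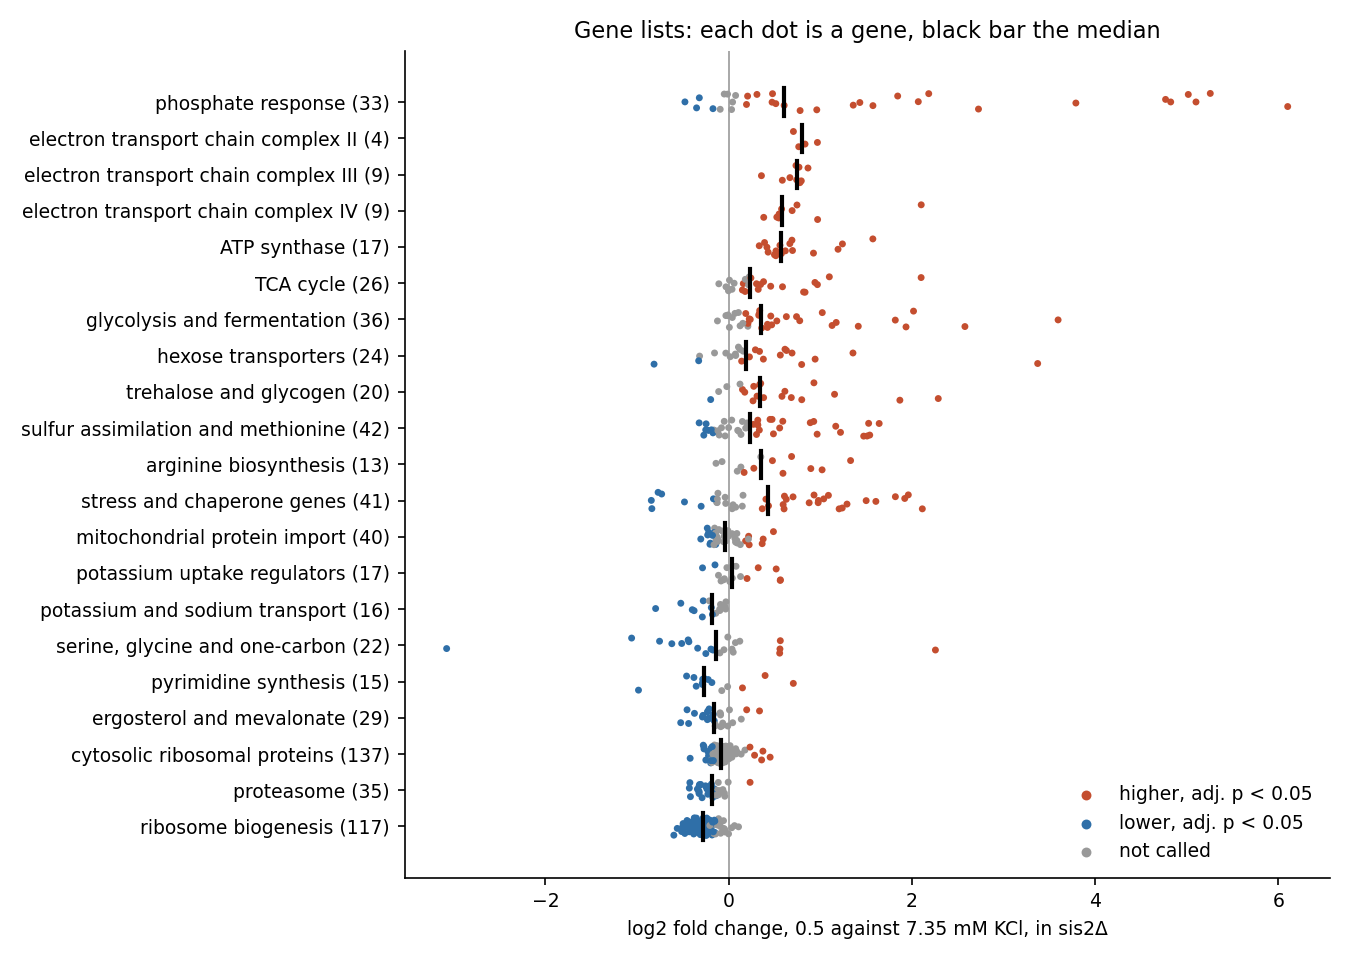
Log2 fold changes in *sis2*Δ, 0.5 against 7.35 mM KCl, of the members of 21 gene lists. Each dot is a gene, colored by its call at an adjusted p under 0.05, the black bar is the median of the list, and the number of genes tested follows the name. The phosphate list reaches 6.10, all subunits of complexes II to IV and of ATP synthase lie to the right of 0, and nearly all ribosome biogenesis genes lie to the left.

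The highest increases belonged to the phosphate response. In yeast this pathway senses inorganic phosphate through the cyclin and kinase pair Pho80p and Pho85p and the kinase inhibitor Pho81p. The transcription factors Pho4p and Pho2p then switch on genes for phosphate uptake, for secreted phosphatases that release phosphate from organic molecules and for polyphosphate storage. Pho4p binds DNA at CACGTG. Of 33 phosphate genes tested, 23 were higher in low potassium, 4 were lower and 6 were not called, with a median log2 change of 0.61. The sequences below come from the RefSeq R64 genome, the build that the submitters' processing notes name, and show 60 bases around a CACGTG match in the promoters of 8 phosphate genes that rose. Each is written 5′ to 3′ on the coding strand of its gene, with the 6 bases of the match in capitals.
*PHO84*, 414 bases before the start, chrXIII:26182-26241, minus strand: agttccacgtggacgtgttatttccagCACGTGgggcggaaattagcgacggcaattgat
*PHO5*, 253 bases before the start, chrII:431172-431231, minus strand: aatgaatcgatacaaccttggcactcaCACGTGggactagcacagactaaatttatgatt
*SPL2*, 147 bases before the start, chrVIII:375215-375274, minus strand: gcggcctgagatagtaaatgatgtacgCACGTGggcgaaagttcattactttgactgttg
*PHO12*, 283 bases before the start, chrVIII:551789-551848, plus strand: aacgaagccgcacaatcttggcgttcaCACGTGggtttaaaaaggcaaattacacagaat
*PHM6*, 279 bases before the start, chrIV:1022568-1022627, minus strand: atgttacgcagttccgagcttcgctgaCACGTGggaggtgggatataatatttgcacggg
*PHO89*, 323 bases before the start, chrII:798813-798872, minus strand: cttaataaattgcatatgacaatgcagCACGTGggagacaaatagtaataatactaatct
*VTC3*, 345 bases before the start, chrXVI:517331-517390, minus strand: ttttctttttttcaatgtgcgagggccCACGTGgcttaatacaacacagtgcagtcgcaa
*PHO81*, 344 bases before the start, chrVII:958522-958581, minus strand: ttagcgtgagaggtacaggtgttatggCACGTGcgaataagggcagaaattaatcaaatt

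On the strand shown, the match continues as CACGTGGG in 6 of these 8 windows, and in *VTC3* it does so on the opposite strand. The window of *PHO11*, chrI:225150-225209, has the same letters as that of *PHO12*. Within the 500 bases before the coding start, CACGTG was found on either strand in 18 of the 33 phosphate promoters (54.5%) and in 365 of all 5885 promoters (6.2%). The longer CACGTGGG was found in 10 of the 33 (30.3%) and in 29 of the 5885 (0.493%). Among promoters of genes that were higher in low potassium, 9.41% held CACGTG, against 4.23% of those that were lower and 5.6% of those not called. These letters are also the core of TCACGTG, which Cbf1p binds in sulfur genes, and a match is not evidence that a factor was bound.

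The phosphate transporters moved in opposite directions by type. *PHO84*, the high-affinity proton-coupled phosphate transporter, had 2220, 2100 and 2270 CPM in 0.5 mM KCl and 72.6, 72.3 and 58.6 CPM in 7.35 mM KCl. Its log2 change was 5.02 (SE 0.105, adjusted p = 1.93e-19 in the edgeR fit that all adjusted p-values below come from). *PHO89*, the sodium-coupled transporter, had 29.4, 27.8 and 42.8 CPM in low potassium and 2.43, 2.5 and 2.32 CPM in regular potassium. Its 3 low-potassium libraries all lay more than 10-fold above the others, and its log2 change was 3.79 (SE 0.167, adjusted p = 8.46e-14). *GIT1*, which takes up glycerophosphoinositol, rose by 2.07 (adjusted p = 1.34e-12). The low-affinity transporters *PHO90* and *PHO87* fell by 0.48 and 0.32 (adjusted p = 2.14e-06 and 1.25e-04), and neither overlapped between the groups, which held for 25.3% of all genes tested in the lower direction. *PHO90* had 86.1, 88.5 and 85.5 CPM in low and 125, 121 and 116 CPM in regular potassium. *SPL2*, which encodes a regulator that lowers low-affinity phosphate uptake, had 56.7, 54.1 and 72.4 CPM in 0.5 mM KCl and 1.63, 1.52 and 1.63 CPM in 7.35 mM KCl. Its log2 change of 5.26 (SE 0.136, adjusted p = 7.93e-18) was the largest after that of *PHO5*. *YML122C*, an annotated reading frame of unknown role on the same strand as *PHO84* (chromosome XIII, 26038 to 26418), spans the *PHO84* window printed above. It fell by 1.00, from 4.27, 4.46 and 4.59 CPM to 1.55, 2.68 and 2.40 CPM (adjusted p = 4.59e-06).

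The acid phosphatases showed a similar split. *PHO5*, the main repressible secreted acid phosphatase (YBR093C, chromosome II, 429548 to 430951), had 2120, 1820 and 2580 CPM in 0.5 mM KCl and 31.3, 32.6 and 31.1 CPM in 7.35 mM KCl. Its log2 change of 6.10 (SE 0.117, adjusted p = 9.04e-20) was the largest of all, a fold of 68.6. *PHO12* and *PHO11*, the minor repressible acid phosphatases at the ends of chromosomes VIII and I, rose by 5.10 (SE 0.127, adjusted p = 4.25e-18) and 4.82 (SE 0.137, adjusted p = 4.41e-17). These copies are near-identical, so the division of reads between them is uncertain. *PHO3*, the constitutive acid phosphatase that lies next to *PHO5* and hydrolyzes thiamine phosphates, fell by 0.35, from 434, 397 and 409 CPM to 326, 323 and 323 CPM (adjusted p = 4.15e-05). The vacuolar alkaline phosphatase *PHO8* rose by 1.36 and the nucleotide phosphatase *PHM8* by 1.43 (adjusted p = 1.73e-12 and 1.45e-12). *PHM6*, a phosphate-regulated gene of unknown function, rose from 2.12, 1.94 and 2.22 CPM to 56.6, 52.1 and 62.9 CPM, a log2 change of 4.77 (SE 0.0963, adjusted p = 1.34e-19).

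The vacuolar transporter chaperone (VTC) complex makes polyphosphate, a polyanion that the vacuole stores. *VTC3* had 464, 449 and 491 CPM in 0.5 mM KCl and 69.9, 71.3 and 71.0 CPM in 7.35 mM KCl, a log2 change of 2.73 (SE 0.0622, adjusted p = 8.36e-19). *VTC1*, *VTC4* and *VTC2* rose by 2.18, 1.84 and 0.61 (adjusted p = 1.89e-15, 2.09e-15 and 2.41e-08), in the order *VTC3*, *VTC1*, *VTC4* and *VTC2*. *VTC5*, an activator of the complex, was at -0.01 (adjusted p = 0.886). The polyphosphatase *PPN2* rose by 0.78. The regulators did not move together. *PHO81* rose by 1.57 (adjusted p = 1.89e-14) and *PHO80* by 0.21 (adjusted p = 0.0135), whereas *PHO4*, *PHO2* and *PHO85* were at 0.03, 0.04 and 0.07 and none of them passed the threshold. In each of these 3 genes the groups overlapped. The call of *PHO80* was lost without replicate 2 or replicate 3 in 7.35 mM KCl, at 0.19 and 0.17.

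**Figure D2:**
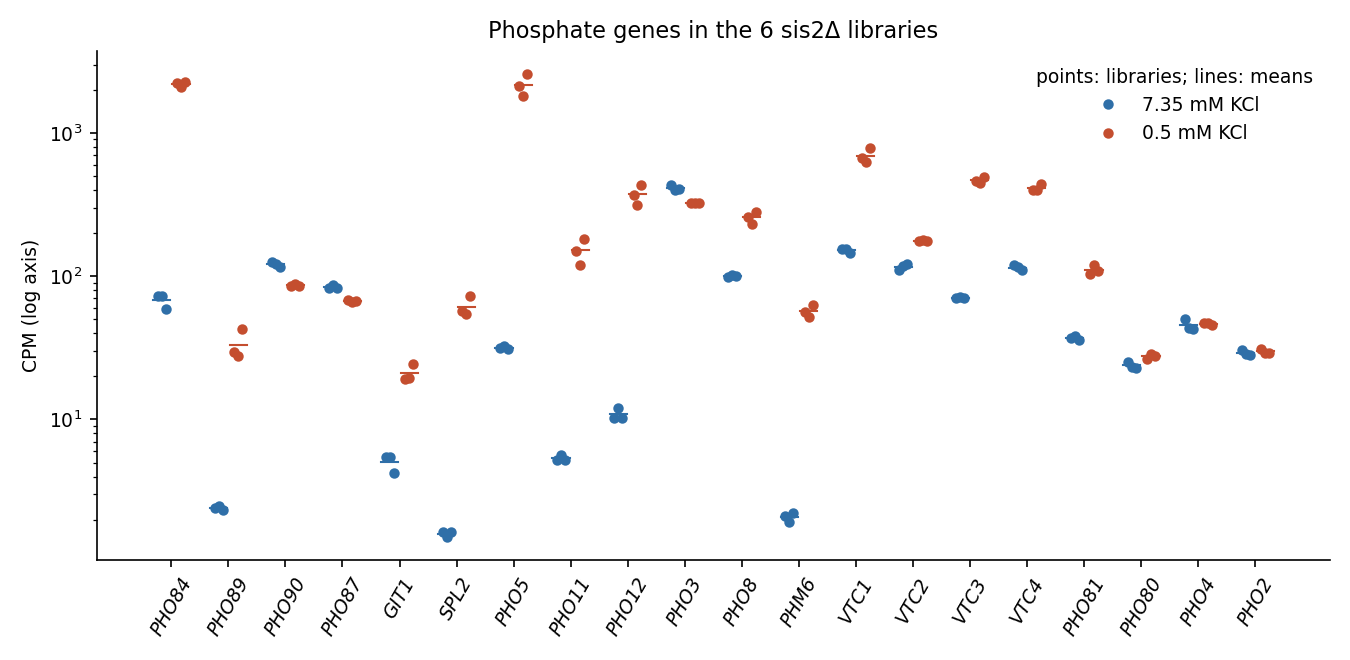
CPM on a log axis of 20 phosphate genes in the 3 *sis2*Δ libraries in 7.35 mM KCl (blue) and the 3 in 0.5 mM KCl (red), with lines at the group means. From *PHO84* to *GIT1* are transporters, followed by *SPL2*, the phosphatases *PHO5* to *PHO8*, *PHM6*, the VTC genes and the regulators. *PHO5* and *PHO84* lie between 1820 and 2580 CPM in low potassium and between 31.1 and 72.6 CPM in regular potassium, and the points of *PHO4* and *PHO2* overlap.

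Genes of glucose uptake and glycolysis formed another large group. Yeast turns these genes on and off in sets according to the amount of glucose, with isoforms for high and low supply. Of 36 genes of glycolysis and fermentation, 25 were higher in low potassium, 0 were lower and 11 were not called, with a median of 0.35. *TDH1*, the glyceraldehyde-3-phosphate dehydrogenase isoform linked to slow growth, had 1040, 767 and 1080 CPM in 0.5 mM KCl and 71.2, 81.8 and 86.0 CPM in 7.35 mM KCl. Its log2 change was 3.59 (SE 0.123, adjusted p = 1.61e-15), whereas *TDH2* rose by 0.46 and *TDH3*, the main isoform, was at 0.21 (adjusted p = 2.17e-04 and 0.0516). *TDH3* passed without replicate 2 in 0.5 mM KCl, at 0.30, or replicate 2 in 7.35 mM KCl, at 0.28. *ENO1*, the enolase isoform repressed by glucose, rose by 2.02 (SE 0.0866, adjusted p = 5.66e-14), and *ENO2* was at -0.03 (adjusted p = 0.778). TDH and ENO copies are similar in sequence, so reads could be divided between them. *HXK1*, a hexokinase that glucose represses, had 616, 555 and 669 CPM in low potassium and 107, 89.7 and 111 CPM in regular potassium, a log2 change of 2.58 (SE 0.0967, adjusted p = 6.34e-15). The glucokinase *GLK1* rose by 1.02 and *HXK2*, the hexokinase of growth on glucose, by 0.33 (adjusted p = 2.41e-08 and 4.56e-04). *PDC6*, a minor pyruvate decarboxylase, rose by 1.93 and *PDC1*, the major one, by 0.42 (adjusted p = 1.10e-09 and 2.14e-05). *YFR052C-A*, next to *HXK1* by its systematic name, rose by 2.44, and reads of the 2 features cannot be told apart here because the strand setting of the counting is not given.

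Of 24 hexose transporters and their regulators tested, 13 were higher and 2 were lower. *HXT4*, a high-affinity glucose transporter, had 241, 321 and 229 CPM in 0.5 mM KCl and 22.4, 22.0 and 31.9 CPM in 7.35 mM KCl, a log2 change of 3.37 (SE 0.166, adjusted p = 5.57e-13). *HXT3* and *HXT1*, low-affinity transporters, rose by 0.69 and 0.34, and *HXT7* and *HXT5*, expressed on poor carbon supply, by 0.94 and 0.80. *HXT2*, another transporter of high affinity, fell by 0.82, from 241, 212 and 205 CPM to 113, 130 and 132 CPM (SE 0.0882, adjusted p = 2.03e-07). *MTH1*, a repressor in the glucose-sensing pathway, rose by 1.36 (adjusted p = 4.81e-11).

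Storage carbohydrate genes rose together. Of 20 genes of trehalose and glycogen metabolism, 16 were higher, 1 was lower and 3 were not called. *GPH1*, the glycogen phosphorylase, had 125, 125 and 136 CPM in low potassium and 27.4, 22.4 and 29.2 CPM in regular potassium, a log2 change of 2.29 (SE 0.0932, adjusted p = 2.41e-14). *PGM2*, the main phosphoglucomutase, rose by 1.87, *TSL1*, a trehalose synthase subunit, by 1.16, and *GSY2*, a glycogen synthase, by 0.93 (adjusted p = 4.08e-12, 3.34e-09 and 3.66e-09). *PGM1*, the minor phosphoglucomutase, was the member that fell, by 0.20 (adjusted p = 0.0224), a call lost without replicate 3 in 0.5 mM KCl, at -0.18, or replicate 1 in 7.35 mM KCl, at -0.11.

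The nuclear genes tested for subunits of complexes II to IV of the respiratory chain all rose. The chain passes electrons from succinate (complex II) and NADH through complex III and cytochrome *c* to complex IV, and ATP synthase uses the resulting proton gradient. Yeast has single-subunit NADH dehydrogenases in place of complex I. All 22 genes for subunits of complexes II to IV were higher in 0.5 mM KCl, with a median log2 change of 0.74, and 22 of 22 stayed called in each alternative fit and without any 1 library. Complex II had 4 of 4 higher with a median of 0.80, complex III 9 of 9 with a median of 0.74, and complex IV 9 of 9 with a median of 0.58. *SDH2*, the iron-sulfur subunit of succinate dehydrogenase, had 129, 133 and 132 CPM in low potassium and 73.1, 59.6 and 68.2 CPM in regular potassium, a log2 change of 0.97 (SE 0.0676, adjusted p = 2.12e-10). In complex III, the increases ran from 0.36 for *CYT1*, cytochrome *c*1 (SE 0.0669, adjusted p = 1.88e-04), to 0.87 for *QCR7* (SE 0.0693, adjusted p = 2.04e-09). In complex IV, *COX4* had 168, 188 and 167 CPM against 112, 102 and 110 CPM, a log2 change of 0.69 (SE 0.0685, adjusted p = 5.65e-08). *COX5A*, the aerobic isoform of a core subunit, rose least among the complex IV genes, by 0.38, and *COX5B*, its hypoxic isoform, rose by 0.57 (adjusted p = 2.43e-05 and 1.72e-05). *COX26* had the largest value, 2.10 (SE 0.342, adjusted p = 4.09e-05), from 70, 52 and 67 counts in low and 10, 19 and 18 in regular potassium.

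The mobile carriers and NADH dehydrogenases were less uniform. *CYC1*, the main cytochrome *c*, rose by 0.46 and *CYC7*, the minor isoform, by 1.04 (adjusted p = 1.29e-05 and 5.76e-06). *NDI1*, which oxidizes NADH inside the mitochondrion, had 96.8, 97.0 and 100 CPM in low potassium and 56.8, 46.2 and 53.4 CPM in regular potassium, a log2 change of 0.91 (SE 0.0727, adjusted p = 2.04e-09). *NDE1*, the main enzyme for cytosolic NADH, was at -0.04 (adjusted p = 0.761), with 253, 281 and 224 CPM against 304, 238 and 236 CPM. All 17 genes of ATP synthase and its regulators were higher, with a median of 0.58. The largest increases were in its regulators: *STF2* rose by 1.57, *STF1* by 1.24 and *INH1*, the inhibitor of ATP hydrolysis, by 1.19 (adjusted p = 2.41e-11, 3.37e-09 and 2.84e-11). *INH1* had 96.6, 106 and 101 CPM in low potassium and 47, 38.9 and 46.7 CPM in regular potassium. Among the subunits, *ATP15* rose most, by 0.93, and *ATP5* least, by 0.33.

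**Figure D3:**
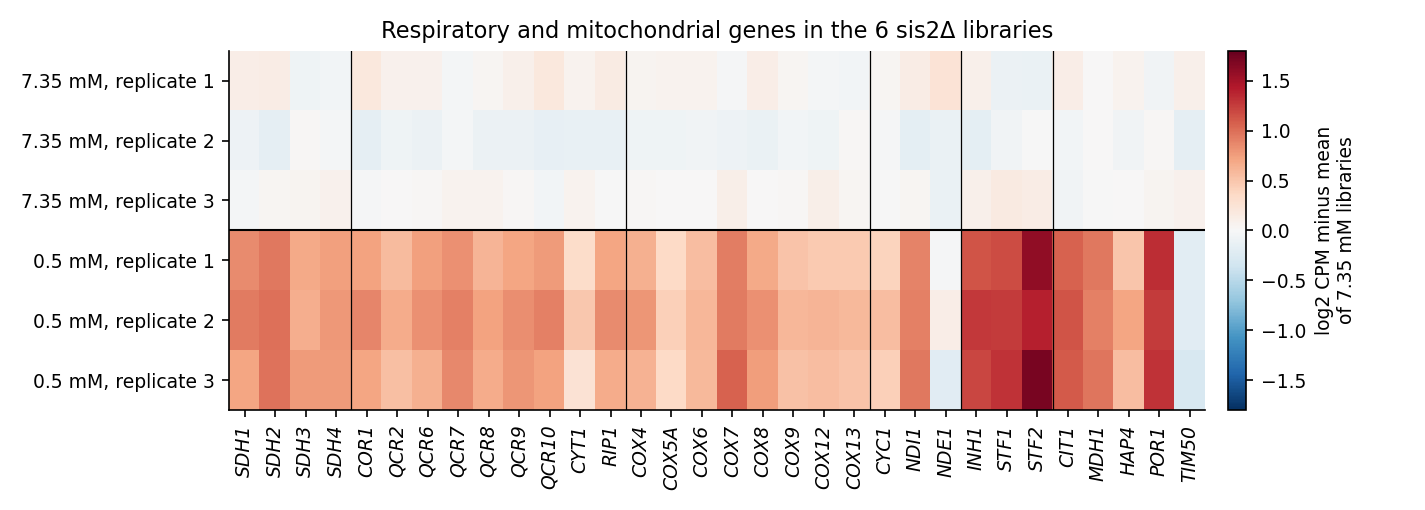
Log2 CPM of 32 respiratory and mitochondrial genes in each *sis2*Δ library, minus the mean of the 3 libraries in 7.35 mM KCl. Vertical lines separate complex II, complex III, complex IV, cytochrome *c* with the NADH dehydrogenases, the ATP synthase regulators and other mitochondrial genes. Rows of the low-potassium libraries are red in all columns but *NDE1* and *TIM50*, which had log2 changes of -0.04 and -0.23.

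Around the chain, 16 of 26 genes of the tricarboxylic acid cycle were higher and 0 were lower. *CIT2*, the peroxisomal citrate synthase and a target of the retrograde pathway from mitochondria to nucleus, had 539, 449 and 561 CPM in low potassium and 123, 126 and 112 CPM in regular potassium, a log2 change of 2.10 (SE 0.0783, adjusted p = 6.04e-15). *CIT1*, the mitochondrial citrate synthase, rose by 1.10, and *MDH1*, the mitochondrial malate dehydrogenase, by 0.94 (adjusted p = 6.18e-12 for both). *HAP4*, the limiting subunit of the activator of respiratory genes, had 63.4, 73.2 and 65.6 CPM in low and 46.7, 42.9 and 44.9 CPM in regular potassium. It rose by 0.59 (SE 0.0694, adjusted p = 7.20e-07), whereas its partner *HAP3* rose by 0.27 and *HAP2* and *HAP5* were at 0.06 and 0.05. *SIP4*, an activator of gluconeogenic genes, rose by 1.19 (adjusted p = 8.53e-09). The CCAAT box that the Hap complex binds was found in 17 of 17 ATP synthase promoters, but it is common, with 62.6% of all promoters, 63% of those higher and 62.3% of those lower holding a match.

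Not all mitochondrial genes rose. *POR1*, the porin of the outer membrane, had 1970, 1860 and 1920 CPM in low potassium and 745, 793 and 805 CPM in regular potassium, a log2 change of 1.30 (SE 0.0673, adjusted p = 1.34e-12). The phosphate and copper carrier *PIC2* rose by 1.13 and the main ADP/ATP carrier *PET9* by 0.55 (adjusted p = 4.61e-11 and 1.88e-04), and of 29 carriers and porins 14 were higher and 1 was lower. Of 40 genes of mitochondrial protein import, 6 were higher, 9 lower and 25 not called, with a median of -0.04. *TIM50*, a subunit of the presequence translocase, had 90.3, 90.2 and 84.8 CPM against 110, 92.3 and 109 CPM and fell by 0.23 (SE 0.0718, adjusted p = 0.0113). It lost the call without replicate 1 in 7.35 mM KCl, at -0.19, and without replicate 3 of that group, at -0.20. Of the mitochondrial ribosomal proteins, 10 of 44 in the large subunit and 5 of 32 in the small subunit were higher and 0 were lower. Over all genes tested, 24.2% were higher and 21.7% lower. The shares of higher ribosomal proteins and both shares of the import list were close to these values or below them. The small-subunit count was 1 without replicate 3 in 0.5 mM KCl, 2 without replicate 1 in 7.35 mM KCl and 3 without replicate 2 or 3 of that group.

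Potassium transport genes did not rise. Of 16 genes of potassium and sodium transport tested, 0 were higher, 8 were lower and 8 were not called, and all 16 values were below 0, with a median of -0.18. *TRK1*, the high-affinity potassium transporter, had 90.8, 103 and 88.7 CPM in 0.5 mM KCl and 94.7, 103 and 105 CPM in 7.35 mM KCl, a log2 change of -0.10 (SE 0.0632, adjusted p = 0.209). It passed as lower without replicate 2 in 0.5 mM KCl, at -0.17. Its groups overlapped, as did those of *TRK2*, its paralog, at -0.10, and of *TOK1*, the outward potassium channel, at -0.04. *NHA1*, which expels sodium and potassium in exchange for protons, had 144, 162 and 131 CPM against 190, 204 and 182 CPM, and fell by 0.40 (SE 0.0729, adjusted p = 1.47e-04). *QDR2*, a multidrug transporter with a role in potassium homeostasis, fell by 0.52, and the sodium pumps *ENA5* and *ENA1* fell by 0.38 and 0.28 (adjusted p = 1.96e-07, 6.34e-04 and 0.00588). *PRM6*, a membrane protein linked to potassium influx, fell most, by 0.80 (SE 0.159, adjusted p = 3.52e-04), from 4.48, 3.91 and 4.54 CPM to 2.38, 2.84 and 2.25 CPM.

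Among 17 regulators of uptake, 5 were higher and 2 were lower. Over all genes tested, 24.2% were higher and 21.7% lower. The share of higher members was thus close to that of genes at large, and the share of lower members was below it. *PPZ1*, *SAT4* and *HAL5* were at -0.05, -0.05 and 0.04 and did not pass the threshold, with *SAT4* at 155, 163 and 153 CPM in low and 159, 165 and 161 CPM in regular potassium. *VHS3*, the paralog of *SIS2* and likewise an inhibitory subunit of Ppz1p, had 38.5, 40.2 and 40.1 CPM in low potassium and 26.4, 27.7 and 29.0 CPM in regular potassium. It rose by 0.52 (SE 0.0564, adjusted p = 2.26e-07). *HAL1*, a halotolerance gene, rose by 0.56, and *PTK2*, a kinase that activates the plasma membrane proton pump, by 0.32 (adjusted p = 1.23e-05 and 1.11e-04). *SIS2* is itself in this list, and its residual reads were higher by 0.56 (adjusted p = 0.00926), a call lost without replicate 3 in 0.5 mM KCl, at 0.46. The list had 3 higher members without that library. *PMA1*, the plasma membrane proton pump whose work is coupled to potassium influx, had 13200, 13700 and 10700 CPM in low potassium and 11100, 10300 and 9600 CPM in regular potassium. Its log2 change of 0.28 (SE 0.0869, adjusted p = 0.0133) passed the threshold, but the groups overlapped, and it fell short without replicate 1 or 2 in 0.5 mM KCl or replicate 3 in 7.35 mM KCl, at 0.24, 0.21 and 0.22. *PMP1*, a small proteolipid of the pump, rose by 0.68 (adjusted p = 3.38e-08). *YRO2*, a membrane protein of the same family as Hsp30p, had 618, 613 and 548 CPM in low and 159, 154 and 145 CPM in regular potassium, a log2 change of 1.96 (SE 0.0863, adjusted p = 8.46e-14).

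Stress genes divided by kind. The general stress response of yeast works largely through Msn2p and Msn4p, which bind AGGGG, and the heat shock factor Hsf1p maintains cytosolic chaperones of the Hsp70 and Hsp90 families. Of 41 stress and chaperone genes, 23 were higher, 7 were lower and 11 were not called. *DDR2*, a general stress gene, had 45.2, 45.2 and 49.3 CPM in low potassium and 12.2, 9.98 and 10.0 CPM in regular potassium, a log2 change of 2.11 (SE 0.0924, adjusted p = 7.94e-14). *SPI1*, *HOR7*, *TMA10* and *HSP26* rose by 1.96, 1.92, 1.82 and 1.61, and *CTT1*, the cytosolic catalase, by 0.98. *HSP12* rose by 1.50 (SE 0.263, adjusted p = 9.34e-05), with the widest spread among these genes, 256, 134 and 107 CPM in regular potassium against 400, 401 and 605 CPM.

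The members of this list that fell were *SSA2*, *SIS1*, *YDJ1*, *HSC82*, *HSP60*, *HSP82* and *SSB1*. *SSB1*, a ribosome-associated Hsp70, fell by 0.17, a call lost with the 6 mutant libraries alone, at -0.17, and in 5 of the 12 fits that left out 1 library, whose values ran from -0.21 to -0.11. In a list of 21 chaperones linked to Hsf1p, drawn up after values were seen, 14 were lower, 2 were higher and 5 were not called, with a median log2 change of -0.30. *SSA2*, a constitutive Hsp70, had 3240, 2990 and 2880 CPM in low potassium and 6040, 5340 and 4990 CPM in regular potassium, a log2 change of -0.85 (SE 0.0765, adjusted p = 1.40e-08). *SIS1* and *YDJ1*, its J-protein partners, fell by 0.84 and 0.77, and *HSC82*, the constitutive Hsp90, by 0.73 (adjusted p = 2.35e-10, 3.56e-10 and 3.44e-09). The promoters of *DDR2* and *HSP26* are shown with one of their AGGGG matches, which reads CCCCT on this strand, and that of *SSA2* with its match to the Hsf1p motif, each in capitals and from R64.
*DDR2*, 175 bases before the start, chrXV:231898-231957, minus strand: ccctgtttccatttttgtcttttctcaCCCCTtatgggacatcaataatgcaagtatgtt
*HSP26*, 326 bases before the start, chrII:381677-381736, plus strand: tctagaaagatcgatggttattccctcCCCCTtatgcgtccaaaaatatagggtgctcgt
*SSA2*, 233 bases before the start, chrXII:97682-97741, minus strand: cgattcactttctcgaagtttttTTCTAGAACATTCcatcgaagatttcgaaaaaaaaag

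*DDR2* held 4 AGGGG matches in its 500 bases and *HSP26* held 3. On either strand, AGGGG was found in 34.1% of all promoters, 46.7% of those of genes higher in low potassium, 26.9% of those lower and 31.6% of those not called. It was found in 80% of the trehalose and glycogen promoters. The Hsf1p motif was found in 1.5% of all promoters, 1.56% of those higher and 2.08% of those lower. Among the chaperones that fell, *SSA2* and *SIS1* held a match, and no match was found for *HSC82* or *YDJ1*.

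Genes for making ribosomes fell. Ribosome biogenesis genes encode the nucleolar factors that process and assemble ribosomal RNA and proteins, and their promoters often carry the PAC motif, GATGAG, and the RRPE motif, AAAAATTT. Of 117 such genes, 97 were lower in 0.5 mM KCl, 0 were higher and 20 were not called, with a median log2 change of -0.28. *SDA1*, needed for export of the large subunit, had 109, 123 and 108 CPM in low potassium and 184, 166 and 166 CPM in regular potassium, a log2 change of -0.60 (SE 0.0669, adjusted p = 3.16e-07). *MDN1*, the large ATPase of pre-ribosome maturation, fell by 0.56, and *ENP2*, a factor of the small subunit, by 0.51 (adjusted p = 8.52e-06 and 6.71e-06). The decreases were thus shallow and broad, and the highest value of the list was 0.11 for *SFP1*, a transcription factor of ribosomal genes (adjusted p = 0.218), which passed without replicate 3 in 0.5 mM KCl at 0.18. The promoters of 3 members are shown with a PAC match, which reads CTCATC on the opposite strand, in capitals and from R64.
*SDA1*, 150 bases before the start, chrVII:982186-982245, minus strand: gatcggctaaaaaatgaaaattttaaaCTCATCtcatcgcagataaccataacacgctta
*MDN1*, 205 bases before the start, chrXII:363911-363970, minus strand: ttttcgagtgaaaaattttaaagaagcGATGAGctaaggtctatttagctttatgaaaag
*ENP2*, 251 bases before the start, chrVII:781489-781548, plus strand: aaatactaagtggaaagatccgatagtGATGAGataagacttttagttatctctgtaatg

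PAC was found in 86.3% of the ribosome biogenesis promoters and in 28.1% of all promoters, and RRPE in 83.8% and 20.8%. Among promoters of genes lower in low potassium, 37.4% held PAC and 33.7% held RRPE, against 23.3% and 15.6% of those higher. Of 137 cytosolic ribosomal proteins, 18 were lower, 5 were higher and 114 were not called, with a median of -0.09. Over all genes tested, 21.7% were lower and 24.2% higher, so both shares of this list were below those of genes at large. The count of lower members ran from 5 without replicate 2 in 7.35 mM KCl to 33 with DESeq2, so it depended on the setting. It was also 7 without replicate 2 in 0.5 mM KCl or replicate 3 in 7.35 mM KCl, and 28 without replicate 1 in 7.35 mM KCl. *RPS9A* rose by 0.45 and *RPS26B* fell by 0.42, the highest and lowest values. Of 35 proteasome genes, 23 were lower, 1 was higher and 11 were not called, with a median of -0.19. *RPT2*, an ATPase of the base, had 172, 178 and 176 CPM in low and 224, 254 and 231 CPM in regular potassium and fell by 0.43 (SE 0.0570, adjusted p = 3.31e-06). The exception was *UBI4*, the polyubiquitin gene induced by stress, which rose by 0.23.

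**Figure D4:**
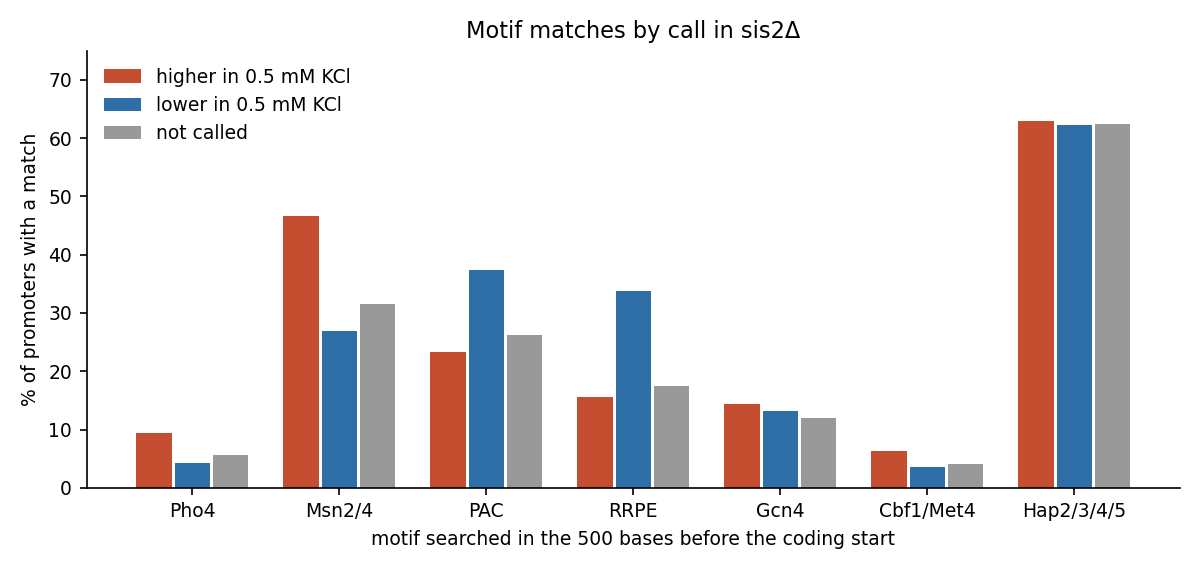
Percent of promoters with a match on either strand to 7 motifs in the 500 bases before the coding start, for genes higher (red), lower (blue) and not called (gray) in *sis2*Δ in 0.5 against 7.35 mM KCl. The bars of the Msn2p and Msn4p motif are 46.7%, 26.9% and 31.6%, those of PAC 23.3%, 37.4% and 26.2%, and those of the Hap complex 63%, 62.3% and 62.5%.

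Amino acid genes moved by pathway. *CHA1*, a serine and threonine deaminase that these amino acids induce, had the largest decrease of all, from 54.7, 54.1 and 72.2 CPM in 7.35 mM KCl to 6.93, 8.04 and 6.48 CPM in 0.5 mM KCl. Its log2 change was -3.08 (SE 0.109, adjusted p = 2.47e-15). *SER3*, the first enzyme of serine synthesis from glycolysis, moved the other way, from 44.1, 38.4 and 38.7 CPM to 195, 180 and 205 CPM, a log2 change of 2.26 (SE 0.0696, adjusted p = 2.02e-16). The glycine cleavage genes *GCV2*, *GCV1* and *GCV3* fell by 1.06, 0.62 and 0.43, and *SHM2*, the cytosolic serine hydroxymethyltransferase, by 0.75. Over the list of serine, glycine and one-carbon genes, 11 of 22 were lower and 4 were higher. Of 13 arginine genes, 8 were higher and 0 were lower, led by *ARG1*, argininosuccinate synthetase, with 415, 341 and 423 CPM against 156, 155 and 158 CPM and a log2 change of 1.33 (SE 0.0804, adjusted p = 2.00e-11). *HIS4* and *LEU2* of histidine and leucine synthesis rose by 1.22 and 0.98, but 5 of 12 histidine genes were lower and 4 higher. Over all genes tested, 21.7% were lower and 24.2% higher. TGACTC, the site of Gcn4p, was found in 84.6% of the arginine promoters and in 12.8% of all promoters, and *GCN4*, which is controlled largely in translation, was at 0.10 (adjusted p = 0.268), passing without replicate 1 in 7.35 mM KCl at 0.18.

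Sulfur genes were more often higher than lower. Of 42 genes of sulfur assimilation and methionine, 21 were higher, 7 were lower and 14 were not called. *MET17*, which fixes sulfide into homocysteine, had 1240, 1130 and 1310 CPM in low potassium and 396, 434 and 437 CPM in regular potassium, a log2 change of 1.54 (SE 0.0681, adjusted p = 8.59e-14). *MET3* and *MET14*, the enzymes that activate sulfate, rose by 1.53 and 1.51, and *MET28*, an activator of the pathway, by 1.64. *SAH1*, adenosylhomocysteine hydrolase, fell by 0.32, and *SAM1*, *MET12*, *MET7*, *CYS4*, *CYS3* and the threonine gene *THR1* are the others that fell. *CYS3* was at -0.17, a call lost with the 6 mutant libraries alone and without replicate 2 in 0.5 mM or in 7.35 mM KCl, at -0.17, -0.14 and -0.13. *THR1* was at -0.19 and lost its call without replicate 2 in 0.5 mM KCl or replicate 2 or 3 in 7.35 mM KCl, at -0.15, -0.14 and -0.18. TCACGTG was found in 50% of the promoters of this list and in 4.55% of all promoters.

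Nucleotide synthesis genes were more often lower. *IMD4*, an inosine monophosphate dehydrogenase of guanine nucleotide synthesis, had 348, 329 and 339 CPM in low potassium and 711, 682 and 662 CPM in regular potassium, a log2 change of -1.01 (SE 0.0671, adjusted p = 8.08e-11). *FUR1*, which salvages uracil, had 176, 163 and 175 CPM against 362, 336 and 316 CPM, a log2 change of -0.99 (SE 0.0621, adjusted p = 3.75e-11). Of 24 purine genes 10 were lower and 3 higher, and of 15 pyrimidine genes 10 were lower and 3 higher. Over all genes tested, 21.7% were lower and 24.2% higher. The IMD genes are similar copies, so their reads could be divided between them.

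Among nitrogen genes, the ammonium permease *MEP3* fell by 0.51 and *MEP2* rose by 0.26 (adjusted p = 1.78e-06 and 0.00481). The general amino acid permease *GAP1* fell by 0.45 and *DUR1,2*, urea amidolyase, by 0.82 (adjusted p = 9.44e-05 and 2.67e-09). *DAL1*, allantoinase, and *UGA1*, a GABA transaminase, rose by 0.93 and 0.71, and over the list 14 of 36 were higher and 5 lower. *TPO2*, a polyamine exporter, had 133, 163 and 114 CPM in low potassium and 25.3, 22.3 and 30.1 CPM in regular potassium, a log2 change of 2.40 (SE 0.117, adjusted p = 5.31e-13). *AQR1*, a transporter that excretes amino acids, fell by 0.98 (adjusted p = 2.36e-07).

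Several drug resistance genes were among the largest decreases. *PDR5*, the main multidrug ABC transporter of the plasma membrane, had 171, 164 and 166 CPM in 0.5 mM KCl and 525, 483 and 495 CPM in 7.35 mM KCl, a log2 change of -1.58 (SE 0.0764, adjusted p = 4.18e-13). *SNQ2*, another such transporter, had 107, 118 and 106 CPM against 230, 211 and 202 CPM and fell by 0.96 (SE 0.0662, adjusted p = 1.64e-10). *YGR035C*, a gene of unknown function, fell by 1.61 (SE 0.191, adjusted p = 7.74e-07), from between 124 and 150 counts to between 39 and 45. In a list of 23 drug efflux genes and their regulators, drawn up after these values were seen, 10 were lower and 5 were higher. *TPO1*, a polyamine and drug transporter, was among those lower, at -0.61, and *TPO2* was the highest. *YHR214W* and *YHR214W-A*, near the right end of chromosome VIII, fell by 1.70 and 1.56 and belong to repeated sequence, so their reads could be divided with other copies. The snoRNA gene *snR63* fell by 0.82, and its transcript lacks the usual poly(A) tail.

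Membrane lipid genes were more often lower. Of 29 genes of the mevalonate and ergosterol pathway, 14 were lower and 2 higher, and *ERG6* fell most, by 0.52 (adjusted p = 9.48e-07). Of 27 genes of inositol, phospholipid and fatty acid synthesis, 13 were lower and 1 was higher. *ACC1*, acetyl-CoA carboxylase, had 933, 1180 and 937 CPM in low and 1820, 1490 and 1300 CPM in regular potassium, a log2 change of -0.60 (SE 0.133, adjusted p = 9.98e-04). *INO1*, which makes inositol phosphate, was the member that rose, by 0.63. Vacuolar proteases and autophagy genes were 16 higher and 0 lower of 35, led by *ATG41* at 1.29 and *ATG39* at 1.13, and including the proteases *PRB1* and *PEP4* at 0.51 and 0.38. Of 19 genes of the vacuolar proton pump, 2 were higher and 3 lower, both shares below those of all genes tested, 24.2% and 21.7%.

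Among vitamins and redox genes, 18 of 26 vitamin B1 and B6 genes were higher and 3 lower, with *THI12* highest at 1.29. The *THI5*, *THI11*, *THI12* and *THI13* copies cannot be told apart with confidence. *BNA2*, which opens the tryptophan route to NAD, had 19.6, 17.9 and 20.6 CPM in low potassium and 6.41, 6.27 and 4.86 CPM in regular potassium, a log2 change of 1.73 (SE 0.110, adjusted p = 4.35e-11). *GTO3*, an omega-class glutathione transferase, rose from 2.56, 2.88 and 2.64 CPM to 14.9, 15.0 and 17.4 CPM, a log2 change of 2.56 (SE 0.100, adjusted p = 1.27e-14). *PRX1*, the mitochondrial peroxiredoxin, rose by 1.11 (adjusted p = 6.27e-12). Of 36 iron genes 14 were higher and 3 lower, and *TIS11*, which degrades transcripts of iron-using proteins, rose most, by 1.27. *YER053C-A*, a short annotated reading frame, rose by 2.39 (SE 0.162, adjusted p = 1.31e-10), from 4.21, 4.10 and 6.24 CPM to 28.2, 21.4 and 26.7 CPM.

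Position and feature class also differed in their shares of calls. The median log2 change of 204 protein-coding genes within 20 kb of a chromosome end was 0.22, with 42.2% of them higher and 12.7% lower. They include near-identical copies such as *PHO11* and *PHO12*, whose division of reads is uncertain, so the 204 may not all be separate responses. Of the 5681 genes farther from the ends, 23.4% were higher and 23.2% lower. Of 78 tRNA genes tested, 47.4% were higher and 1.28% lower, and of 79 snRNA and snoRNA genes 38% were higher and 7.59% lower. These short transcripts mostly lack poly(A) tails and were seen in poly(A)-selected libraries, and the part of residual non-polyadenylated RNA in their values was not tested.

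The WT libraries show how far this response was shared. In WT, 24.1% of the genes were higher and 23.2% lower in 0.5 mM KCl, and 2271 genes were called in the same direction in both strains. That is 73.9% of the calls in *sis2*Δ and 71.8% of those in WT, with 13 genes called in opposite directions. Across the 6691 genes, the log2 changes of the strains had a Pearson r of 0.854 and a Spearman rho of 0.807, given as a description because genes are not independent replicates. The difference between the strains' responses passed the threshold in 183 genes, or 2.74% of those tested, as the interaction term of the same edgeR fit. The response of *sis2*Δ was above that of WT in 114 of them and below it in 69, or 105 with the replicate number, which the labels give as a batch, as a replicate block. In 70 the strains moved in the same direction and *sis2*Δ by less, and in 22 it moved further. This count depended on the libraries: it was 340 without replicate 2 of *sis2*Δ in 0.5 mM KCl, the library that stood apart, 111 without replicate 1 of that group and 121 without replicate 2 of WT in 0.5 mM KCl.

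**Figure D5:**
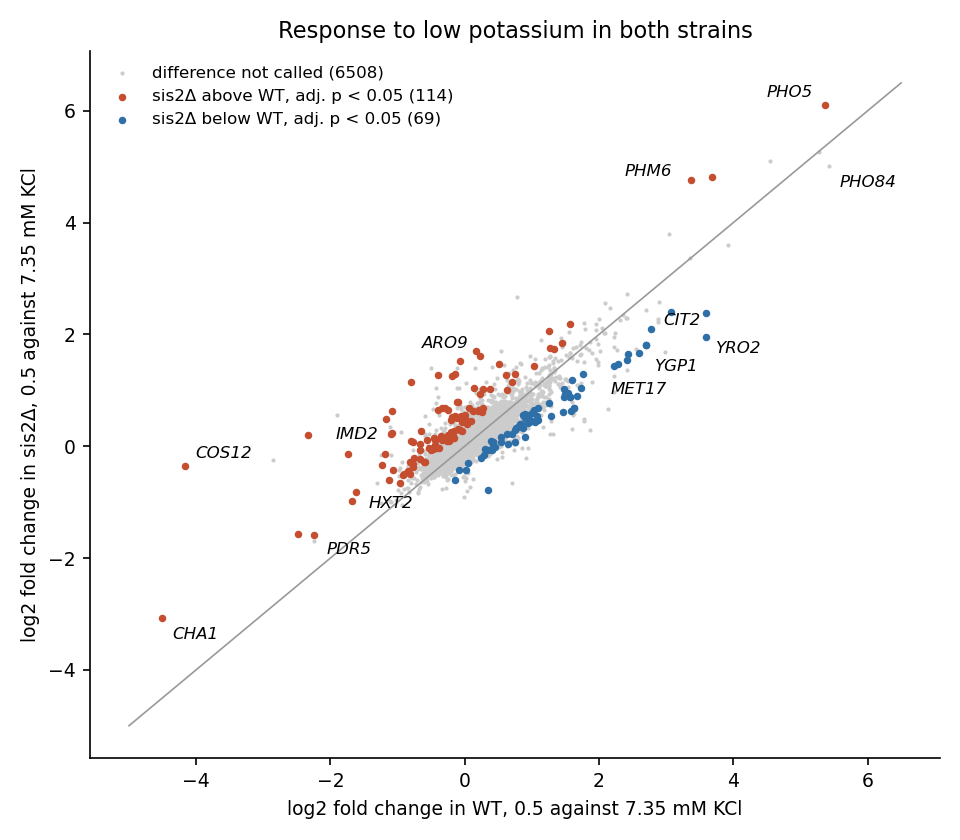
Log2 fold change in 0.5 against 7.35 mM KCl in WT (x axis) and *sis2*Δ (y axis) for the 6691 genes tested. Colored points passed the test of the difference between strains at an adjusted p under 0.05, with 114 above WT in red and 69 below in blue, and the line marks equal values. *PHO5* and *PHM6* lie above the line at the top right, *YRO2* and *YGP1* below it, and *COS12* and *IMD2* are near 0 in *sis2*Δ and low in WT.

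The phosphate genes that differed all rose further in *sis2*Δ. *PHM6* had a difference of 1.40 (SE 0.151, adjusted p = 4.43e-06), *PHO11* of 1.14, *GIT1* of 0.81, *PHO5* of 0.74, *VTC1* of 0.61, *VTC4* of 0.40, *PHM8* of 0.39 and *VTC2* of 0.35, all on the log2 scale. The difference of *PHO12*, the near-identical copy of *PHO11*, did not pass the threshold, and the division of reads between these copies is uncertain. *PHM6* had 30.2, 26.7 and 28.4 CPM in WT in 0.5 mM KCl and 2.79, 2.98 and 2.46 CPM in 7.35 mM KCl, so its low-potassium level was lower in WT than in any such *sis2*Δ library. The call of *PHM8* was lost in 10 of the 12 fits that left out 1 library, with values from 0.30 to 0.46, and with DESeq2 size factors, at 0.39. That of *VTC2* was lost in 3 of these fits, without replicate 2 or 3 of WT in 0.5 mM KCl or replicate 2 of WT in 7.35 mM KCl, at 0.34, 0.33 and 0.31, and that of *VTC4* in 1, without replicate 2 of WT in 0.5 mM KCl, at 0.36. *PHO84* had a log2 change of 5.43 in WT, and its difference of -0.41 did not pass the threshold (adjusted p = 0.0923). Respiratory genes leaned the other way. The median of the 22 genes of complexes II to IV was 0.90 in WT and 0.74 in *sis2*Δ, and the difference passed for *COX4* and *COX6*, at -0.39 and -0.32 (adjusted p = 0.0284 and 0.0277). These calls were lost in 8 and 7 of the fits that left out 1 library, with values from -0.48 to -0.34 and from -0.37 to -0.28. *COX4* thus rose in both strains, by 1.08 in WT. Its mean in 7.35 mM KCl was 108 CPM in *sis2*Δ and 74.0 CPM in WT, and in 0.5 mM KCl 174 and 157 CPM. For *COX6* the means were 88.4 and 61.9 CPM, then 132 and 115 CPM. The mean of *sis2*Δ was thus above that of WT at either concentration for these genes.

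*COS12*, a subtelomeric gene of the COS family, had 12.7, 11.8 and 10.6 CPM in WT in 7.35 mM KCl and 0.729, 0.559 and 0.645 CPM in 0.5 mM KCl. In *sis2*Δ it was at 1.46, 1.16 and 1.21 CPM in 7.35 mM KCl and 1.11, 1.09 and 0.845 CPM in 0.5 mM KCl, a difference of 3.82 (adjusted p = 4.52e-09). *IMD2* fell from 196, 194 and 193 CPM to 65.6, 55.0 and 54.7 CPM in WT, and had between 22.2 and 29.0 CPM in all *sis2*Δ libraries (difference 1.6, adjusted p = 8.83e-09). *CHA1* fell by 4.51 in WT and fell by 3.08 in *sis2*Δ, *PDR5* fell by 2.25 and fell by 1.58, and *HXT2* fell by 1.62 and fell by 0.82. The mean of *CHA1* in 7.35 mM KCl was 235 CPM in WT and 60.3 CPM in *sis2*Δ, and in 0.5 mM KCl 10.3 and 7.15 CPM. *YPS5*, *YHR137C-A* and *YPR002C-A* rose in *sis2*Δ, by 1.52, 1.71 and 1.29, and were not called in WT, at -0.07, 0.16 and -0.14, and *YOL164W-A* rose by 0.48 in *sis2*Δ and fell by 1.17 in WT. These 4 had between 0.493 and 14.1 CPM in the *sis2*Δ libraries. The difference of *YPR002C-A*, 1.43, lost its call in 9 of 12 fits without 1 library, with values from 1.04 to 1.75. *YHR137C-A* is next to *ARO9*, an aromatic aminotransferase, by systematic name, and *ARO9* rose by 1.61 in *sis2*Δ and by 0.23 in WT (difference 1.37, adjusted p = 1.02e-07). Reads of *YHR137C-A* and *ARO9* cannot be told apart here.

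Of the 8 lowest differences, 7 belonged to genes that rose in both strains and further in WT. *YRO2* rose by 3.59 in WT and by 1.96 in *sis2*Δ, a difference of -1.64 (SE 0.120, adjusted p = 1.62e-08). The low-potassium levels were close, between 589 and 630 CPM in WT and between 548 and 618 CPM in *sis2*Δ, and in regular potassium WT lay between 41.8 and 56.4 CPM and *sis2*Δ between 145 and 159 CPM. *YGP1*, a secreted glycoprotein of starved cells, *DPI8* and *CAR2*, the ornithine transaminase, had the same form, with differences of -0.91, -0.89 and -0.93. *MET17*, at -0.87, and *CIT2*, at -0.67, are further examples. *YER053C-A*, *YOR142W-B* and *YLR437C-A* had differences of -1.21, -0.95 and -0.94, and they too rose in both strains. *YLR437C-A* is next to *CAR2* by its systematic name, and reads of these 2 features cannot be told apart here. The 7 may therefore not be 7 separate responses. The exception among the 8 was the histidine tRNA gene *tH(GUG)E2*, which fell by 0.79 in *sis2*Δ and was at 0.34 in WT, not called, a difference of -1.13. The call of *YER053C-A* was lost without replicate 3 of WT in 7.35 mM KCl, at -1.02, and that of *tH(GUG)E2* in 8 of 12 such fits, with values from -1.34 to -0.95.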

How the data were processed

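Poly(A) RNA of 12 yeast cultures was sequenced with a directional kit. The authors deposited 1 table of estimated counts per feature, of which 40.11% of the values are whole numbers. The submitters' processing notes name STAR 2.7.6a, Subread 1.6.2, featureCounts, cutadapt 2.6, bcl2fastq and build R64, and the strand setting of the counting is not given in the sources used here. The expected counts were rounded to whole numbers. The *sis2*Δ libraries held between 35451323 and 46543107 counts. Systematic names matched 6034 of the 7112 features to RefSeq R64.

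The 12 libraries were fitted together as 4 groups in edgeR 4.0.16 (R 4.3.3), without a block as in the study's own model, with TMM normalization, filterByExpr and the quasi-likelihood test. P-values were adjusted by Benjamini-Hochberg over 6691 genes, with a threshold of 0.05. SE is the log2 change over the root of its F statistic, and CPM uses the TMM-normalized library size. The interaction term tested the difference between strains. Python 3.11.15, NumPy 2.4.6, pandas 2.3.3, SciPy 1.17.1 and matplotlib 3.10.9 were used for the rest.

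The comparison, the 59 gene lists and the genes described were chosen with earlier results of these data known, and 2 further lists were drawn up after values were seen. Named genes were the 15 highest and 15 lowest in *sis2*Δ and the 8 highest and 8 lowest differences among called genes with a mean of 50 counts, the extremes of each list and other members a sentence on its list needed, and genes of the study's hypotheses. Not all of them are given values. The labels give the replicate number as a batch, which pairs the libraries. Deviations of same-numbered libraries from their group means correlated with a median r of 0.0576 over 18 pairs, and of -0.0226 over the 3 pairs of the mutant. Alternatives were DESeq2 1.42.0, its size factors, no filter, at least 10 counts in every library, the replicate block, the 6 mutant libraries alone, other thresholds and leaving out each library.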

Additional observations from a re-analysis of the deposited data

Results flagged for a closer look

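The response to low potassium of 45 of the genes described differed between strains by the interaction term of the edgeR fit (adjusted p under 0.05). All values are the log2 fold change in *sis2*Δ minus that in WT. Among phosphate genes they were 1.40 for *PHM6*, 1.14 for *PHO11*, 0.81 for *GIT1*, 0.74 for *PHO5*, 0.61 for *VTC1*, 0.40 for *VTC4*, 0.39 for *PHM8* and 0.35 for *VTC2*. Among genes of carbon and energy metabolism they were 0.80 for *HXT2*, -0.55 for *HXT7*, -0.67 for *CIT2*, -0.39 for *COX4*, -0.32 for *COX6* and -0.40 for *INH1*. For amino acid, nitrogen and sulfur genes they were 1.43 for *CHA1*, 1.37 for *ARO9*, 0.69 for *DAL1* and *AQR1*, 0.41 for *MEP3*, -0.93 for *CAR2* and -0.87 for *MET17*. Transport of drugs and polyamines gave 0.66 for *PDR5*, 0.52 for *TPO1* and -0.68 for *TPO2*. The difference of *PHO12*, the near-identical copy of *PHO11*, did not pass, and the division of reads between these copies is uncertain.

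Stress and membrane protein genes had values of -1.64 for *YRO2*, -0.91 for *YGP1*, -0.89 for *TMA10* and *DPI8* and -0.35 for *HSP82*. Other genes were *COS12* at 3.82, *IMD2* at 1.6, *YPS5* at 1.58, *TIS11* at 0.65, *INO1* at 0.50, *ATG41* at -0.48, *RPS9A* at -0.56 and *RPT2* at -0.34. Features given by systematic name were *YOL164W-A* at 1.65, *YHR137C-A* at 1.54, *YPR002C-A* at 1.43 and *YHR214W-A* at 0.93. Those below 0 were *YLR437C-A* at -0.94, *YOR142W-B* at -0.95, *tH(GUG)E2* at -1.13 and *YER053C-A* at -1.21. *YHR137C-A* and *YLR437C-A* are next to *ARO9* and *CAR2* by name and may not be separate responses.

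Several of these differences lost their call when 1 of the 12 libraries was left out. The call was lost in 10 fits for *PHM8* (0.30 to 0.46), in 9 for *INH1* (-0.49 to -0.36), *YHR214W-A* (0.68 to 1.30) and *YPR002C-A* (1.04 to 1.75), in 8 for *HXT7* (-0.66 to -0.44), *COX4* (-0.48 to -0.34) and *tH(GUG)E2* (-1.34 to -0.95), and in 7 for *TPO2* (-0.83 to -0.56), *HSP82* (-0.39 to -0.29) and *COX6* (-0.37 to -0.28). It was lost in 4 for *INO1* (0.40 to 0.56), in 3 for *VTC2* (0.31 to 0.38), in 2 for *RPT2* (-0.38 to -0.29) and in 1 each for *VTC4* (0.35 to 0.45) and *YER053C-A* (-1.46 to -0.99), each range covering all 12 fits. DESeq2 did not call *TPO2* (-0.68) or *YHR214W-A* (0.93). With DESeq2 size factors the calls of *PHM8* (0.39), *YHR214W-A* (0.92) and *YPR002C-A* (1.42) were lost, and without a filter on low counts those of *YHR214W-A* (0.93) and *YPR002C-A* (1.43).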

How the results depend on the processing

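In *sis2*Δ, 748 genes passed with a minimum absolute log2 fold change of 0.5 (667 higher and 81 lower) and 223 with a minimum of 1 (216 higher and 7 lower). Leaving out 1 library gave between 2544 and 3130 genes in *sis2*Δ, with 1377 to 1633 higher and 1167 to 1497 lower, and between 2664 and 3326 in WT, with 1387 to 1691 higher and 1277 to 1635 lower. The replicate block gave 3225 genes in *sis2*Δ (1683 higher and 1542 lower), 3323 in WT and 249 differences between strains (144 above and 105 below). For the differences, leaving out 1 library gave between 111 and 340 genes, with 68 to 196 above and 42 to 144 below. DESeq2 gave 119 below. Values that changed sign without 1 library were close to 0 and not called: their ranges were -0.0862 to 0.0666 for *ENO2*, -0.0264 to 0.0862 for *HAL5*, -0.00385 to 0.108 for *HAP5*, -0.123 to 0.0953 for *NDE1*, -0.0143 to 0.111 for *PHO4* and -0.0523 to 0.0302 for *VTC5*, each the log2 change in *sis2*Δ. The causes were not tested. *COX26* and *YGR035C* rest on between 10 and 150 counts a library, so counting error weighs more on them than on genes with higher counts.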
